A study of Mus musculus with 10 samples.

Results

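The regions described here are 2362 windows of the mouse lung methylome that were higher in every ovalbumin (OVA)-exposed mouse than in every saline mouse. They were chosen by their methylation values. A window was a member when the lowest of the 7 exposed mice lay above the highest of the 3 saline mice and when the means of both exposed groups were at least 15 percentage points above the saline mean. The methylation level of a window is the percentage of its CpG calls that were methylated. The table held 446336 windows of 1000 bp, laid every 500 bp, and 412413 of them were on chromosomes 1 to 19 and had at least 20 calls in each of the 10 mice. The members were 0.573% of those windows, and merging members that overlap or touch gave 1585 regions.

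Lung DNA of female BALB/c mice aged 8 weeks was profiled by Methyl-seq, a capture of selected genomic regions followed by bisulfite conversion, which separates methylated from unmethylated cytosines. The 3 saline mice received saline alone. The 3 OVA-induced mice were sensitized with 50 µg of OVA, an egg protein used here to produce allergic lung inflammation, together with an aluminium adjuvant, and were then challenged intranasally with 25 µg. The 4 DSE-treated mice, labelled Herb, had the same OVA protocol and were also given 200 mg/kg of Descurainia sophia seed extract (DSE) by mouth. The deposited labels name the herb group without the extract, so that its identity is taken from the study's methods. The saline mice had neither OVA nor adjuvant, whose contributions cannot be told apart. All the DNA came from whole lung tissue, in which a change of methylation within cells and a change in the share of a cell type cannot be told apart.

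DNA methylation in mammals sits mostly on CpG dinucleotides. Active promoters rich in CpG are usually unmethylated, most of the remaining genome is methylated, and enhancers that are in use in a cell type are commonly at intermediate to low levels where transcription factors bind. The identity of a cell type is therefore visible in which distal elements carry low methylation, and tissue DNA gives the average over its cell types.

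The sequences of 6 members are shown to give the kind of element that the counts come from. The first 4 are among the 10 regions with the widest separation of the groups, and the other two lie in Tek, the angiopoietin receptor of endothelial cells, and in Tet2, an enzyme that oxidizes 5-methylcytosine. Each line is the stretch of 300 bases with most CpGs in the member window, read from the plus strand of the C57BL/6J reference genome (mm10) because the mice were BALB/c and no sequence of their own was used. Capitals mark the CpGs of the reference. Calls were summed by window, so that which of these CpGs were measured is not known.
Rnd3 intron, chr2:51140609-51140908: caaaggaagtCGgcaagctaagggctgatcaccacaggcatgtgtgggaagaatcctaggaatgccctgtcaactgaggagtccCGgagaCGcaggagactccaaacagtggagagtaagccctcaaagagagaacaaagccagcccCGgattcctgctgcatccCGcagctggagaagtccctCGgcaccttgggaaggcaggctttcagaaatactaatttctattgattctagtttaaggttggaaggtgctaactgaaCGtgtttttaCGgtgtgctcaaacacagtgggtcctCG
Fgd5 intron, chr6:92034257-92034556: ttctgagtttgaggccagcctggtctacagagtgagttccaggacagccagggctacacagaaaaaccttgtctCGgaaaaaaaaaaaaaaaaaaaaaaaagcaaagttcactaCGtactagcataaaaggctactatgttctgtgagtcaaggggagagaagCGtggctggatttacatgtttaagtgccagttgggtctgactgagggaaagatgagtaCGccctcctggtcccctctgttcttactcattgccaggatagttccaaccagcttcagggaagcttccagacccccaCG
upstream of Foxc1, chr13:31797662-31797961: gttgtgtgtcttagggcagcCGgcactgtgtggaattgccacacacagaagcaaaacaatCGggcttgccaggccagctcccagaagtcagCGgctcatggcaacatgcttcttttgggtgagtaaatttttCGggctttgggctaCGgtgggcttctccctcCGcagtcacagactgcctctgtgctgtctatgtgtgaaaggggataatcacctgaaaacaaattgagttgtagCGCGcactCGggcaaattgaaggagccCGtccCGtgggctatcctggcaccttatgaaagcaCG
Cmip intron, chr8:117368678-117368977: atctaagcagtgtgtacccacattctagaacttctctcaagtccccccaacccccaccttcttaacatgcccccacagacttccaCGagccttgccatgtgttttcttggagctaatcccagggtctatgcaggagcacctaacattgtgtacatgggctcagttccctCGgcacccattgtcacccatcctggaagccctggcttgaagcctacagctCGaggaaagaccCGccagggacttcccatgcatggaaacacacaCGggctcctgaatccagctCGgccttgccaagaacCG
Tek intron, chr4:94752535-94752834: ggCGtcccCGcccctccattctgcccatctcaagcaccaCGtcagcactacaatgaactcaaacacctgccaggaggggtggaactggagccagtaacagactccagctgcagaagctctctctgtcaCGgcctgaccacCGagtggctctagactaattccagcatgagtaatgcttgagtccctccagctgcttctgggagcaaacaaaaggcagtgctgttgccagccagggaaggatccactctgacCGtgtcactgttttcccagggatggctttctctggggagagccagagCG
Tet2 intron, chr3:133516194-133516493: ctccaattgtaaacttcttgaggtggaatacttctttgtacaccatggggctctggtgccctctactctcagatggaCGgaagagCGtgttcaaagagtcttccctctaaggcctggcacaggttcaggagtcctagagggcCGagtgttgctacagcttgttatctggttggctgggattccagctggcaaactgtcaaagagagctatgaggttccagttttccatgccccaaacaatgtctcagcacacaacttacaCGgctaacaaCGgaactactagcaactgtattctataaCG
The stretches held between 5 CpGs, in Fgd5, and 12, upstream of Foxc1. None of these windows is a CpG-dense promoter, and the median member had 13 CpGs in 1000 bp, the same as the median of all windows analysed.

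The libraries held 306656737 to 410836272 CpG calls per mouse over all windows, in which most calls are counted in more than 1 window because neighbouring windows overlap. The median member had 284 to 397 calls per mouse. At 336 calls and 42.0% methylation, the 95% Wilson interval runs from 36.8% to 47.3%, an interval of counting error alone because calls are not independent molecules. The fewest calls of a member in a mouse were 20, where 40.0% methylation has an interval from 21.9% to 61.3%. Of the members, 185 held exactly the calls of a neighbouring member, so that they add no measurement of their own. A total of 923 regions were 1 window, 574 were 2 overlapping windows, and 88 had 3 to 8 windows.

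Across the members, the level averaged 28.9% ± 1.43 (SD, n = 3) in saline, 47.8% ± 2.81 (SD, n = 3) in OVA-induced and 47.4% ± 2.31 (SD, n = 4) in DSE-treated mice. Over all windows analysed, the averages were 51.1%, 52.4% and 52.3%. The saline mice had means of 29.5%, 27.3% and 29.99% over the members, the OVA-induced mice 44.6%, 48.9% and 49.9%, and the DSE-treated mice 44.6%, 49.2%, 46.3% and 49.4%. Members thus stood well below the genome-wide mean in saline mice and close to it in exposed mice. The order of the groups was fixed by the choice of members, and no test was made of it.

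The exposed mice did not contribute equally. The lowest exposed mouse of a member was OVA replicate 1 at 744 members (31.5%), Herb replicate 1 at 658 (27.9%) and Herb replicate 3 at 388 (16.4%), whereas each of the other 4 exposed mice was lowest at 132 to 165. Among the saline mice, replicate 3 was the highest at 1088 members (46.1%), replicate 1 at 858 (36.3%) and replicate 2 at 416 (17.6%). The total calls of OVA replicate 1, Herb replicate 1 and Herb replicate 3 were 394389787, 410836272 and 317014670, and the part of depth in this order was not tested.

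Each mouse was also read at members chosen without it, a value the choice did not use. The left-out saline mice were at 37.2%, 34.9% and 37.0%, between the saline mice that had chosen the windows (30.3% to 31.3%) and the exposed mice (49.3% to 50.7%). The left-out OVA-induced mice were at 42.8%, 47.8% and 48.4%, and the left-out DSE-treated mice at 43.7%, 48.4%, 44.99% and 48.9%, while the saline mice averaged 29.2% to 29.7% at the same windows. A left-out exposed mouse was above all saline mice in 92.7% to 97.4% of the windows, and a left-out saline mouse was below all exposed mice in 77.8% to 81.9%. On average, each left-out mouse thus differed in the direction of its group. The mice beside it had chosen the windows, so that the size of the difference and these shares follow in part from the choice. Part of the low level of the saline mice came from their having chosen the windows. Shares of the same kind over all windows are not given here.

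**Figure D1:**
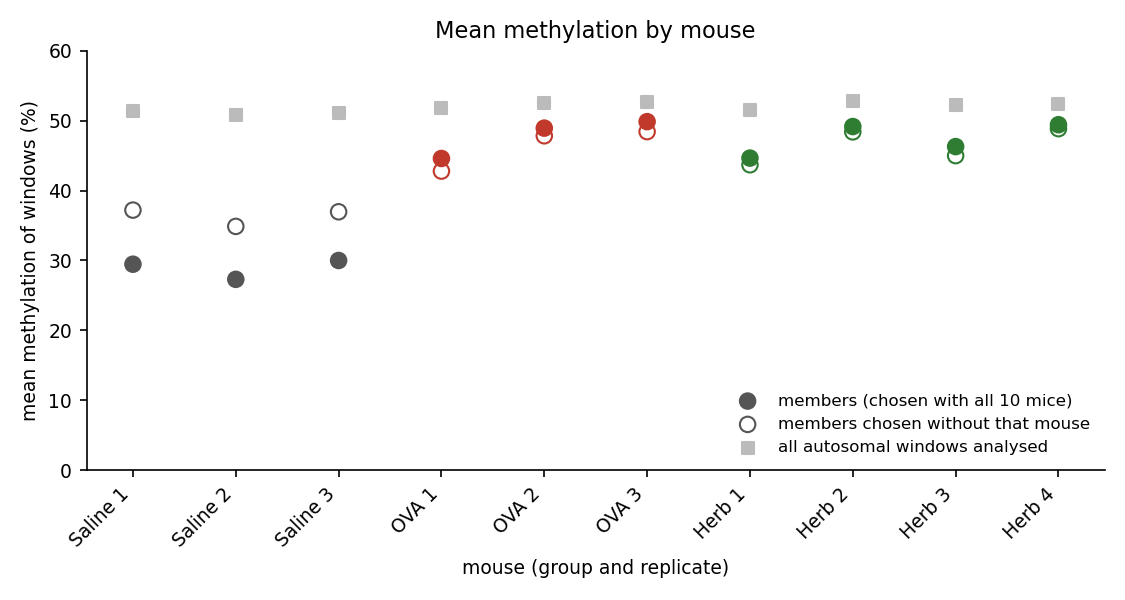
Mean methylation (percent, vertical axis) of each of the 10 mice (horizontal axis) over the 2362 members (filled circles), over members chosen without that mouse (open circles) and over all 412413 windows analysed (grey squares). The saline mice rise from 27.3% to 29.99% up to 34.9% to 37.2% when left out, and stay below every exposed mouse, the lowest of which is 42.8% when left out.

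Members lay at intermediate to low levels in saline mice. The median saline level was 27.2%, with the middle 50% of the members between 20.1% and 35.7%, and the full range ran from 3.42% to 77.1%. Of the windows with a saline level of 20% to 30%, 3.16% were members, against 2.07% of those at 10% to 20%, 1.92% at 30% to 40%, 0.0405% under 10% and 0.252% at 50% to 60%. No member had a saline level of 80% or more, and a rise of 15 points leaves little room there. The opposite rule, all exposed mice below all saline mice and both means at least 15 points lower, was met by 1863 windows (0.452%), and these were most common at a saline level of 70% to 80%, where 1.32% of the windows met it. Without the threshold on the size, the exposed mice were all higher in 39818 windows (9.65%) and all lower in 19702 (4.78%). The median OVA vs. saline difference was 18.1 points over the members and 0.738 over all windows analysed, and the median DSE-treated vs. saline difference was 17.7 and 0.743.

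The surroundings of the members were read as a description, since the rule fixed the difference at the members and not at their neighbours. At the lead windows, the member of each region with the largest gap between the lowest exposed and the highest saline mouse, OVA-induced mice were 18.9 points above saline on average. Windows 1000 bp to either side, which share no bases with the lead window, were 6.56 and 6.91 points higher, and windows 5000 bp away were 2.35 and 2.56 points higher. Methylation in saline mice fell from 47.6% and 49.6% at 5000 bp to 29.6% at the lead window, while OVA-induced mice had 49.9% and 52.1% at that distance and 48.5% at the lead window. The rule chose windows that were low in saline mice and took the largest gap of each region, so that a smaller difference beside the lead window follows in part from the choice, and no width was tested. The means of the DSE-treated and OVA-induced mice were less than 1 point apart at every distance. Neighbours were not always captured, and the means rest on 737 and 734 windows at 1000 bp and on 356 and 367 at 5000 bp of the 1585 lead windows.

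**Figure D2:**
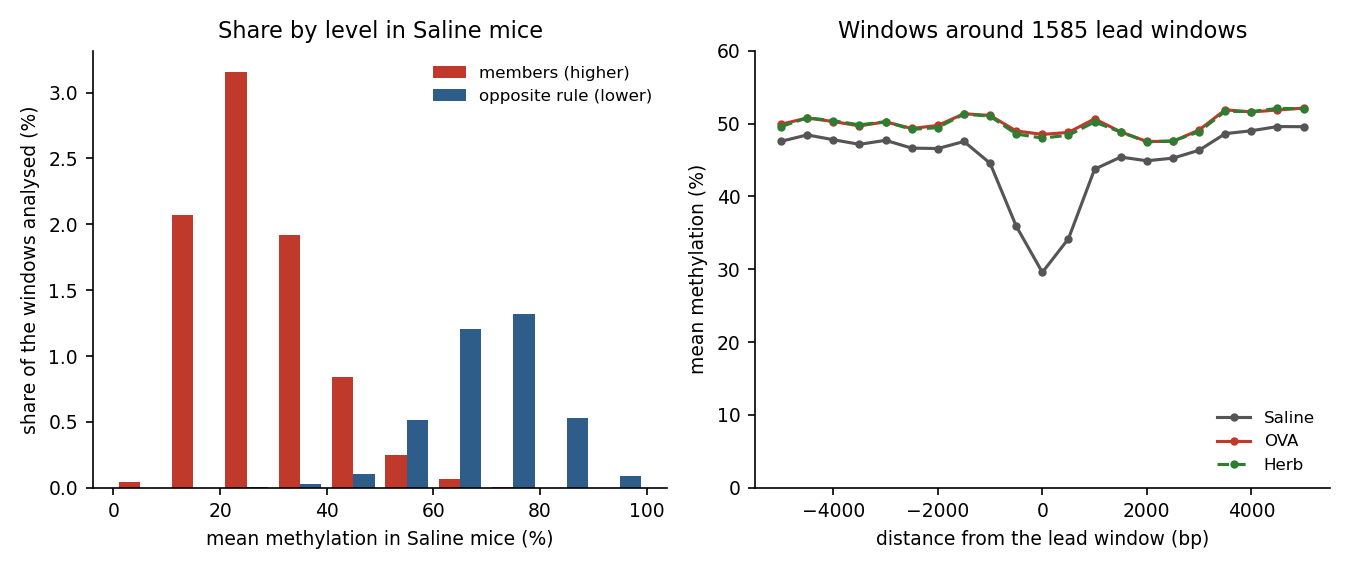
Left, share of the windows analysed (percent) that were members or met the opposite rule, by mean methylation in saline mice in steps of 10 points. Right, mean methylation (percent) of the 3 groups in windows at distances from -5000 to 5000 bp of the 1585 lead windows, where the saline curve is at 29.6% at the lead windows, which were chosen for it, and the OVA and Herb curves stay between 47.5% and 52.1%.

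The region with the widest separation lay in intron 2 of Ankrd44, a regulatory subunit of protein phosphatase 6 (chr1:54807501-54808500). The saline mice had 51.9%, 50% and 46.4%, the OVA-induced mice 86.7%, 84.9% and 85.0%, and the DSE-treated mice 76.7%, 78.4%, 71.4% and 89.8%. The lowest exposed mouse was 19.6 points above the highest saline mouse, at 27 to 113 calls per mouse. Coding exon 7 of Rnf43, a ubiquitin ligase that removes Wnt receptors from the membrane (chr11:87728501-87729500), had 27.3%, 35.8% and 29.4% in saline, 55.4%, 72.1% and 56.6% in OVA-induced and 56.2%, 62.5%, 69.2% and 64.4% in DSE-treated mice.

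Rnd3, a small GTPase that acts on the actin cytoskeleton, was deeper in calls (259 to 387 per mouse). In its intron 2 (chr2:51140001-51141000), the level was 19.7%, 14.5% and 16.1% in saline, 41.4%, 43.9% and 39.0% in OVA-induced and 38.7%, 44.3%, 42.9% and 46.5% in DSE-treated mice. The deepest of the 10 widest regions was in intron 1 of Cmip, which encodes a Maf-inducing adaptor protein (chr8:117368001-117369000, 504 to 790 calls). There the saline mice had 8.17%, 12.6% and 14.1%, the OVA-induced mice 32.9%, 37.7% and 33.9%, and the DSE-treated mice 32.9%, 36.1%, 31.0% and 36.4%. In both windows the exposed groups overlapped each other and neither reached the saline mice.

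The remaining 6 of the 10 had the same pattern. Intron 3 of Fgd5, an exchange factor for Cdc42 known from endothelium (chr6:92034001-92035000), was at 17.0% ± 1.93 (SD, n = 3) in saline, 40.8% ± 6.58 (SD, n = 3) in OVA-induced and 43.6% ± 8.94 (SD, n = 4) in DSE-treated mice. Intron 1 of Tanc1, a scaffold protein of synapses (chr2:59627501-59628500), was at 14.7% ± 4.40 (SD, n = 3), 41.5% ± 5.98 (SD, n = 3) and 41.6% ± 7.29 (SD, n = 4). A window 9146 bp upstream of Foxc1, a forkhead factor of vascular development (chr13:31797001-31798000), was at 30.1% ± 0.537 (SD, n = 3), 53.9% ± 7.12 (SD, n = 3) and 54.4% ± 4.26 (SD, n = 4). A window 13337 bp upstream of Foxo1, another forkhead factor (chr3:52254501-52255500), was at 24.1% ± 4.98 (SD, n = 3), 55.9% ± 9.02 (SD, n = 3) and 51.0% ± 3.42 (SD, n = 4), with only 21 to 40 calls per mouse. The remaining pair were intron 1 of Gm11696, 4294 bp upstream of the G protein subunit gene Gna13 (chr11:109358001-109359000), and an intergenic window 23424 bp from 5730522E02Rik (chr11:26233501-26234500). Their levels in saline were 15.9% ± 3.67 (SD, n = 3) and 27.5% ± 0.444 (SD, n = 3), and those of all exposed mice were 38.8% to 49.5% and 45.3% to 55.5%.

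**Figure D3:**
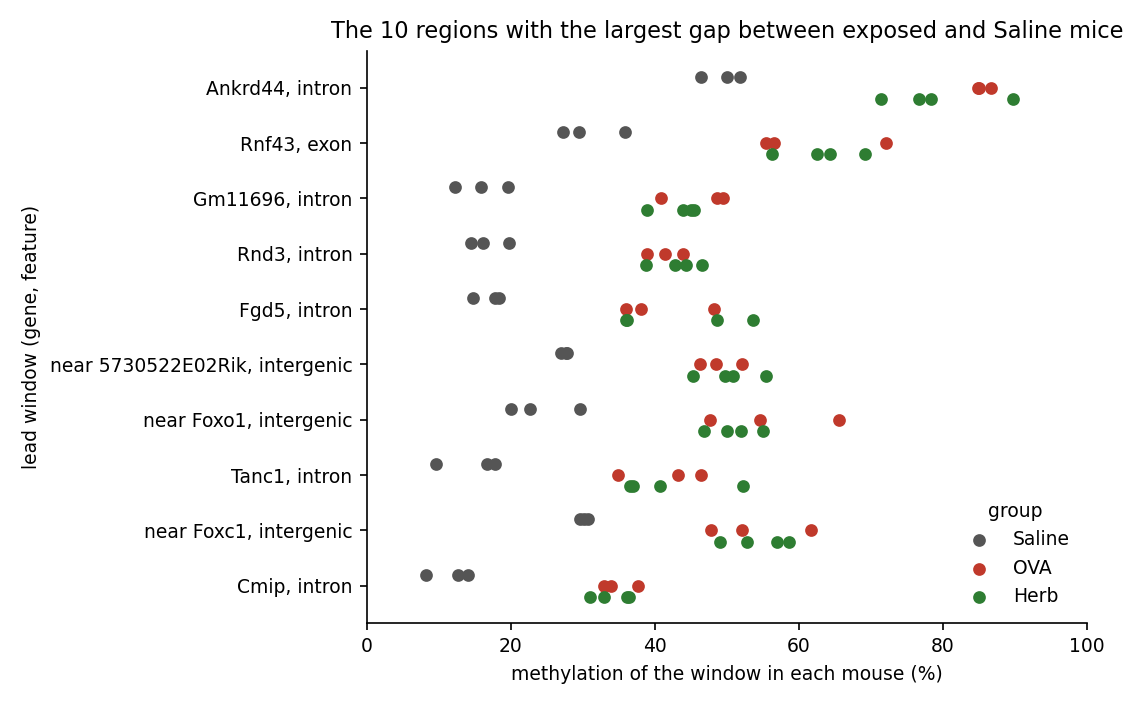
Methylation (percent, horizontal axis) in each of the 10 mice at the lead windows of the 10 regions with the largest gap, with saline mice in grey, OVA-induced in red and DSE-treated (Herb) in green. Grey points lie left of all others in each row by 16.9 to 19.6 points, as the choice of members requires a gap of that sign, and red and green points overlap in each row.

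Introns held 46.0% of the members, intergenic sequence 32.3%, exons 13% and promoters, which reach 1000 bp up and down from a transcription start site (TSS), 8.72%. Over all windows analysed, these shares were 30.1%, 36.5%, 13.7% and 19.7%. Since the members started at low to intermediate levels, they were also set beside the 81707 windows with a saline level between 15.7% and 44.9%, the range that holds the middle 80% of the members. Of those, 31.7% were intronic, 40.0% intergenic, 11.0% exonic and 17.3% in promoters. Members were hence more often intronic and less often in promoters than windows of a like starting level. The rule did not use position, and no test was made because overlapping windows are not independent. The windows of a like level were also deeper, with a median of 481.7 calls per mouse against 336.55. The part of depth was not tested. Assigned by the midpoint of the window alone, 55.4% of the members were intronic, 5.12% exonic and 5.88% in promoters. The median member was 17674 bp from the nearest TSS, against 13127 bp over all windows analysed. Every autosome had members, from 0.461% of the windows analysed on chromosome 1 to 0.715% on chromosome 18.

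The densest stretch was the Hoxa cluster on chromosome 6 (chr6:52155367-52260880), 11 genes for homeodomain factors that give position along the body axis and are expressed in lung mesenchyme. It held 29 members in 10 regions among 167 windows analysed (17.4%, against 0.573% of all windows), and 76 of the 167 windows were higher in all exposed mice, as were 9.65% of all windows. It also held 1 window of the opposite rule. The Hoxb cluster had 1 member in 203 windows, Hoxc 0 in 130 and Hoxd 1 in 125. Over the Hoxa members, the saline mice had 17.5%, 17.3% and 20.02%, the OVA-induced mice 33.0%, 37.5% and 38.8%, and the DSE-treated mice 33.9%, 39.9%, 35.1% and 40.9%. OVA replicate 1 and Herb replicate 1 were the lowest of their groups here as over all members. The members ran from chr6:52161501 to chr6:52205000, and the remaining part of the cluster held none. The window with the largest gap of its longest region (chr6:52203501-52204500) covers part of exon 1 of Hoxa5, with 5' untranslated and coding bases, and lies in intron 1 of the longest transcript of Hoxa3. It has 81 CpGs and had 2785 to 4584 calls per mouse. It had 11.1%, 11.0% and 11.2% in saline, 29.2%, 26.6% and 34.3% in OVA-induced and 34.1%, 36.1%, 27.7% and 36.4% in DSE-treated mice, and its region of 8 windows was the longest of all.

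Further promoter windows of the cluster had similar levels. At Gm15050 and exon 4 of Hoxa3 (chr6:52172501-52173500), the level was 11.2% ± 2.93 (SD, n = 3) in saline, 30.2% ± 2.31 (SD, n = 3) in OVA-induced and 30.5% ± 2.87 (SD, n = 4) in DSE-treated mice. At Hoxaas2 and Hoxa2 (chr6:52165501-52166500), it was 12.1% ± 1.35 (SD, n = 3), 30.2% ± 2.54 (SD, n = 3) and 32.02% ± 4.78 (SD, n = 4).

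Outside the cluster, promoters with large gaps belonged to genes of varied function. Exons 1 and 2 of Creb3l4, a CREB family factor anchored in the endoplasmic reticulum (chr3:90242501-90243500), were at 18.9% ± 3.50 (SD, n = 3) in saline, 39.4% ± 4.58 (SD, n = 3) in OVA-induced and 39.7% ± 2.17 (SD, n = 4) in DSE-treated mice. C1qa, a chain of the complement component C1q made by macrophages (chr4:136898001-136899000), had 19.1%, 19.3% and 21.9% in saline mice, 36.6%, 40.2% and 45.5% in OVA-induced mice and 35.0%, 37.4%, 35.9% and 44.8% in DSE-treated mice. The window of Gm4869 and the initiation factor gene Eif3b (chr5:140444001-140445000) held 5 CpGs and was at 35.4% ± 2.29 (SD, n = 3), 55.4% ± 2.57 (SD, n = 3) and 58.4% ± 1.48 (SD, n = 4). C730027H18Rik (chr10:71182501-71183500) was at 19.96% ± 2.14 (SD, n = 3), 45.2% ± 6.38 (SD, n = 3) and 38.3% ± 2.24 (SD, n = 4).

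Of the 20428 genes with a window analysed within the gene or 1000 bp around it, 1005 (4.92%) held a member and 726 (3.55%) a window of the opposite rule. Both kinds were found at 98 genes, which were 9.75% of the genes with a member and 13.5% of those with a window of the opposite rule. Genes with a member had a median of 28 windows analysed and all genes 10, so that long and densely captured genes had more chances. The remaining 740 members lay at no gene. There were 127 genes with at least 2 separate regions, and Hoxa3 had 8, in part because its longest transcript spans its neighbours.

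Aopep, an aminopeptidase gene of 361 kb, had 5 regions among 106 windows analysed. Macf1, which links microtubules and actin, Stard13, a GTPase-activating protein, Pakap, an anchor of protein kinase A, and Pitpnc1, a phosphatidylinositol transfer protein, had 4 each among 118, 36, 143 and 181 windows. Ankrd44, Bcl2l1, the gene of the apoptosis inhibitor Bcl-xL, Prkce, a protein kinase C, and Agap2, a GTPase-activating protein for Arf, had 3 each among 59, 50, 143 and 28. None of these 10 genes had a window of the opposite rule. In intron 2 of Bcl2l1 (chr2:152820001-152821000), the saline mice had 16.6%, 14.5% and 18.5% and the exposed mice 34.6% to 40.5%. Within intron 1 of Prkce (chr17:86266501-86267500), the saline mice had 29.2%, 33.9% and 30% and the exposed mice 49.5% to 65.9%, at 56 to 111 calls. In intron 13 of Aopep (chr13:63279501-63280500), they had 11.5%, 16.9% and 15.8% against 33.5% to 42.0%. The lead windows of Macf1, Stard13, Pakap and Pitpnc1, all intronic, were at 25.5% to 28.1% on average in saline mice and at 40.7% to 47.5% in the exposed groups.

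Next in length after the region at Hoxa5 came regions of 5 overlapping windows at Agap2, Foxn3, Fcho1 and Smad6. At the last exon of Agap2, in its 3' untranslated part (chr10:127092001-127093000), the level was 28.7%, 25.4% and 28.2% in saline, 46.1%, 49.3% and 47.7% in OVA-induced and 43.7%, 50.3%, 45.1% and 55.2% in DSE-treated mice. At exon 3 of Foxn3, a forkhead repressor (chr12:99341501-99342500), the level was 18.4% ± 2.59 (SD, n = 3), 41.8% ± 7.82 (SD, n = 3) and 36.6% ± 3.31 (SD, n = 4). Intron 3 of Fcho1, an endocytosis factor (chr8:71719001-71720000), was at 37.1% ± 5.91 (SD, n = 3), 56.5% ± 2.36 (SD, n = 3) and 58.0% ± 3.00 (SD, n = 4).

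Sequence was read for 10 short motifs in the reference, on both strands, without a test, because a match is a description and not a site of binding. The forkhead motif TGTTTAC, which reads GTAAACA on the other strand, was in 552 members (23.4%), in 13.1% of all windows analysed, in 14.9% of the windows of a like saline level and in 9.39% of the windows of the opposite rule. This was the widest margin over the windows of a like level among the 10 motifs, which were chosen with earlier results of these data known. It was seen at each CpG content, with 26.9% of the members of up to 7 CpGs against 17.3% of the windows of a like level, 23.9% against 16.0% at 8 to 12 CpGs, 22.8% against 15.3% at 13 to 18, and 20.6% against 11.4% at 19 or more. The TEAD motif GGAATGT was in 18.7% of the members and 14.3% of the windows of a like level, the GATA motif AGATAAG in 15.8% and 14.3%, and the SOX motif ACAATGG in 14.6% and 12.8%. The ETS motif of the PU.1 type, GAGGAAGT (ACTTCCTC on the other strand), was in 5.76% and 8.50%, and the RUNX motif TGTGGTT in 19.98% and 21.7%. At 19 or more CpGs, RUNX was in 17.7% and 17.6%. Windows of the opposite rule held the ETS motif in 19.6% and RUNX in 39.3%. The AP-1 motif TGANTCA was in 24.8% of the members and 27.1% of the windows of a like level, the C/EBP motif TTGCNCAA in 9.31% and 9.86%, the NKX2-1 motif TCAAGTG in 12.96% and 13.1%, and the E-box CAGCTG in 49.0% and 45.9%. Over all windows analysed, TEAD was in 13.3%, GATA in 13.1%, SOX in 12.4%, the ETS motif in 7.40%, RUNX in 21.6%, AP-1 in 25.7%, C/EBP in 9.55%, NKX2-1 in 12.7% and the E-box in 42.9%.

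The forkhead letters were in 4 of the 10 members with the largest gap, and these are shown with 30 bases on each side and the motif in capitals, as the reference plus strand has it.
Rnd3 intron, chr2:51140266-51140332: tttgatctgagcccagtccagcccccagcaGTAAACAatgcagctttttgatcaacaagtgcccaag
Fgd5 intron, chr6:92034917-92034983: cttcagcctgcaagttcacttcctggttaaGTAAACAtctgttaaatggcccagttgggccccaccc
near 5730522E02Rik, chr11:26234071-26234137: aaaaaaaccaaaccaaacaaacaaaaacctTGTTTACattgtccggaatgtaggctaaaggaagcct
upstream of Foxc1, chr13:31797385-31797451: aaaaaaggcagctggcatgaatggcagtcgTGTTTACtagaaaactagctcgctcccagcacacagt
Each of these windows held the motif 1 time.

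**Figure D4:**
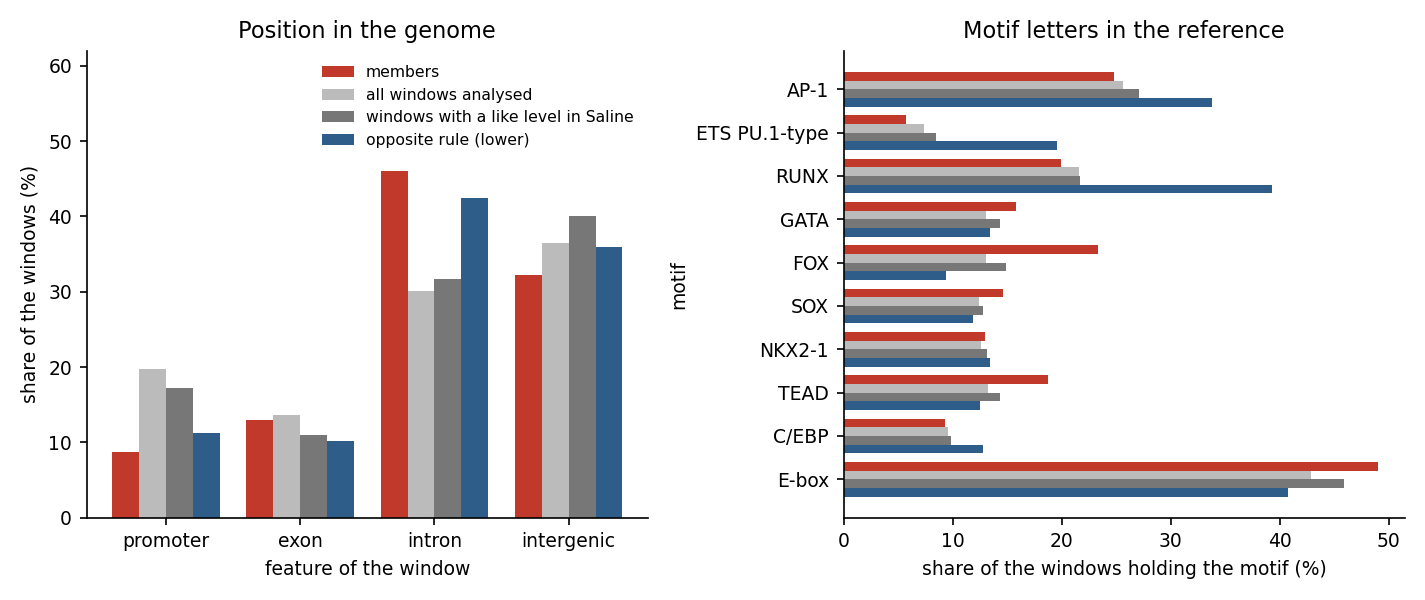
Share of windows (percent) by feature (left) and by presence of each of the 10 motifs (right) among the members, all windows analysed, windows of a like saline level and windows of the opposite rule. Members stand out by introns (46.0%), few promoters (8.72%) and the forkhead motif (23.4%), and windows of the opposite rule by the RUNX (39.3%) and PU.1-type ETS (19.6%) motifs.

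Genes were then read by 18 lists of cell type markers and pathways, chosen with earlier results of these data known. Endothelium had a member at 9 of 28 genes (32.1%) and in 15 of 502 windows (2.99%), and no window of the opposite rule. The genes were Pecam1, Cdh5, Flt1, Tek, Egfl7, Eng, Cldn5, Tmem100 and Gata2. By overlap this was the highest share of the 18 lists. By window, the type 2 axis (2.91%), myeloid genes (2.59%), VEGF signalling (2.13%) and TGF-beta and BMP signalling (1.99%) came next. The myeloid share was 3 windows of 1 region at Spi1, and the same list had 3 windows of the opposite rule. General epithelium (0.867%), pan-leukocyte genes (0.853%) and DNA methylation genes (0.838%) were nearer to the 0.573% of all windows analysed. By the nearest TSS in place of overlap, 6 of 28 endothelial genes had a member. This was a lower share than in TGF-beta and BMP signalling (11 of 36), the type 2 axis (5 of 17) and VEGF signalling (6 of 22). The window of Cdh5, which encodes VE-cadherin, the junction protein of endothelium, was intergenic (chr8:104145001-104146000). It lay within 1000 bp of the gene but 25013 bp from the nearest TSS, that of Bean1. There the saline mice had 40.0%, 36.2% and 34.7%, the OVA-induced mice 59.6%, 53.1% and 65.2%, and the DSE-treated mice 54.9%, 58.4%, 59.6% and 53.5%, at 55 to 98 calls. Intron 1 of Tek (chr4:94752001-94753000), whose sequence is given above, was at 20.1%, 16.1% and 20.4% in saline, 31.5%, 43.6% and 39.9% in OVA-induced and 39.2%, 37.6%, 31.96% and 41.0% in DSE-treated mice, with 610 to 881 calls. Coding exon 14 of Flt1, a receptor for VEGF (chr5:147634501-147635500), was at 54.6% ± 3.39 (SD, n = 3), 73.3% ± 1.75 (SD, n = 3) and 71.7% ± 3.09 (SD, n = 4). The exposed groups overlapped in all 3 windows.

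The list of VEGF, angiopoietin and ephrin signalling, which shares Flt1 and Tek with endothelium, had a member at 6 of 22 genes (27.3%), namely Flt1, Tek, Efna1, Ephb2, Ephb4 and Sema3f. Ephb4, the ephrin receptor of veins (intron 1, chr5:137352001-137353000), was at 21.4% ± 1.21 (SD, n = 3) in saline, 37.3% ± 4.05 (SD, n = 3) in OVA-induced and 37.7% ± 3.73 (SD, n = 4) in DSE-treated mice. Efna1, an ephrin ligand (intron 2, chr3:89274001-89275000), was at 50.3% ± 2.82 (SD, n = 3), 74.7% ± 6.65 (SD, n = 3) and 67.6% ± 2.77 (SD, n = 4), with 29 to 55 calls. Angpt1 and Ephb2 also held a window of the opposite rule.

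In TGF-beta and BMP signalling, 10 of 36 genes (27.8%) held a member. They included a ligand (Bmp4), receptors (Bmpr2, Eng), inhibitory SMADs (Smad6, Smad7), the repressors Ski and Skil, the latent binding protein Ltbp1, the ubiquitin ligase Smurf1, which marks SMADs for degradation, and the target Id3. Intron 1 of Bmpr2, the type II receptor whose loss is known from pulmonary hypertension (chr1:59772001-59773000), was at 25.1%, 30% and 22.2% in saline, 44.1%, 53.2% and 53.9% in OVA-induced and 44.3%, 53.0%, 47.9% and 51.9% in DSE-treated mice. The reference has 2 CpGs in this window, so that its 143 to 230 calls describe few positions. Intron 1 of Smurf1 (chr5:144948001-144949000) was at 14.3% ± 2.89 (SD, n = 3), 35.9% ± 3.40 (SD, n = 3) and 36.7% ± 3.96 (SD, n = 4). Intron 3 of Smad6 (chr9:63990501-63991500) was at 23.2%, 24.4% and 26.2% in saline, 35.8%, 53.1% and 54.3% in OVA-induced and 41.7%, 53.2%, 44.3% and 40.0% in DSE-treated mice, with OVA replicate 1 again the lowest. Intron 2 of Smad7 was at 16.1% ± 1.92 (SD, n = 3), 32.02% ± 3.16 (SD, n = 3) and 36.2% ± 6.74 (SD, n = 4). Smad3 held a window of the opposite rule.

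Notch signalling had a member at 4 of 25 genes (16.0%) and in 1.80% of the windows. Wnt signalling had one at 6 of 36 genes (16.7%) and in 0.896% of the windows, against 0.573% of all windows analysed. The last exon of Notch1, in its 3' untranslated part (chr2:26458001-26459000) was at 26.03% ± 2.09 (SD, n = 3), 42.3% ± 6.11 (SD, n = 3) and 41.1% ± 3.43 (SD, n = 4), and intron 1 of its coactivator Maml3 (chr3:51908001-51909000) at 32.6% ± 2.66 (SD, n = 3), 52.7% ± 3.15 (SD, n = 3) and 50.05% ± 4.91 (SD, n = 4). Among Wnt genes, the ligand Wnt7b (intron 1, chr15:85559501-85560500) was at 29.6% ± 3.41 (SD, n = 3), 48.8% ± 3.76 (SD, n = 3) and 49.4% ± 2.32 (SD, n = 4). The receptor Fzd6 (chr15:39007001-39008000) was at 36.6% ± 3.16 (SD, n = 3), 54.7% ± 2.93 (SD, n = 3) and 53.1% ± 5.60 (SD, n = 4), and the factor Tcf7l1 (intron 3, chr6:72693501-72694500) at 25.2% ± 1.41 (SD, n = 3), 40.3% ± 2.99 (SD, n = 3) and 42.7% ± 5.10 (SD, n = 4).

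On the type 2 cytokine axis, which carries allergic signals, 4 of 15 genes (26.7%) had a member and none a window of the opposite rule. These were Stat6, the factor activated by IL-4 and IL-13, Ptgdr2, the prostaglandin D2 receptor of type 2 helper T cells and eosinophils, and the kinases Jak1 and Jak3. In exons 10 and 11 of Stat6 (chr10:127653001-127654000, 1644 to 2528 calls), the level was 31.8%, 37.0% and 35.3% in saline, 45.01%, 53.5% and 53.2% in OVA-induced and 45.7%, 54.6%, 50.6% and 56.8% in DSE-treated mice. In the last exon of Ptgdr2, which overlaps that of Ccdc86 (chr19:10941001-10942000), it was 29.8%, 31.6% and 29.2% in saline, 40.7%, 49.5% and 45.9% in OVA-induced and 39.6%, 54.2%, 50.9% and 57.8% in DSE-treated mice. Intron 1 of Jak1 (chr4:101234001-101235000) had 30 to 53 calls and was at 8.33% ± 2.42 (SD, n = 3), 24.0% ± 5.25 (SD, n = 3) and 25.7% ± 9.89 (SD, n = 4).

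Of the genes that set DNA methylation, 2 of 16 (12.5%) had a member, both of them TET dioxygenases. Intron 1 of Tet2 (chr3:133516001-133517000, 731 to 1215 calls) was at 19.7%, 17.6% and 19.2% in saline, 35.5%, 40.7% and 44.0% in OVA-induced and 42.6%, 43.0%, 39.9% and 44.2% in DSE-treated mice. Another window of Tet2 met the opposite rule. Intron 2 of Tet1 (chr10:62866501-62867500) was at 55.8% ± 5.04 (SD, n = 3), 72.0% ± 5.04 (SD, n = 3) and 74.3% ± 5.66 (SD, n = 4).

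Of the alveolar type 1 list, 2 of 12 genes (16.7%) had a member (Emp2, Clic5), and of the alveolar type 2 list 1 of 11 (9.09%, Etv5). Of the general epithelial list, 3 of 18 (16.7%) had one (Krt7, Ehf, Tjp3), and of the airway list 0 of 11. The share of all genes analysed was 4.92%. By window, the shares were 1.16% for type 1, 1.27% for type 2 and 0.867% for general epithelium, against 0.573% of all windows analysed. By nearest TSS, 2 of 13 type 2 genes and 1 of 12 airway genes had a member. Muc1 and Ehf also held a window of the opposite rule. The promoter of Krt7, an epithelial keratin (chr15:101411501-101412500), was at 30.3% ± 3.55 (SD, n = 3) in saline, 48.7% ± 4.60 (SD, n = 3) in OVA-induced and 46.4% ± 2.57 (SD, n = 4) in DSE-treated mice. Exons 2 to 4 of Tjp3, a tight junction protein (chr10:81283001-81284000), were at 45.9% ± 0.20 (SD, n = 3), 63.1% ± 5.30 (SD, n = 3) and 63.1% ± 9.01 (SD, n = 4). Etv5, a factor that maintains type 2 cells (intron 7, chr16:22405001-22406000), was at 25.1% ± 3.96 (SD, n = 3), 46.8% ± 8.09 (SD, n = 3) and 42.4% ± 6.01 (SD, n = 4). Emp2 (chr16:10312001-10313000) was at 41.3% ± 3.84 (SD, n = 3), 63.7% ± 3.77 (SD, n = 3) and 61.3% ± 6.51 (SD, n = 4), Clic5 (intron 3, chr17:44243001-44244000) at 34.1% ± 4.35 (SD, n = 3), 57.9% ± 4.43 (SD, n = 3) and 53.6% ± 6.01 (SD, n = 4), and the ETS factor Ehf (intron 1, chr2:103294501-103295500) at 26.1% ± 2.15 (SD, n = 3), 42.2% ± 6.75 (SD, n = 3) and 46.1% ± 3.99 (SD, n = 4). Of lung mesenchyme and smooth muscle, 1 of 25 genes (4%) had a member by overlap and 3 by nearest TSS. By window, the share of this list was 0.261%. The gene by overlap was the integrin gene Itga8 (coding exon 2, overlapping E030013I19Rik, chr2:12300001-12301000), at 31.4% ± 3.91 (SD, n = 3), 49.7% ± 6.28 (SD, n = 3) and 49.3% ± 3.95 (SD, n = 4).

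Of the pan-leukocyte list, 7 of 14 genes (Ptprc, Ikzf1, Fli1, Lcp1, Lcp2, Dock2, Arhgap15) had a window of the opposite rule and 2 a member, Runx3 and Dock2, and by nearest TSS 1 had a member. T cell genes had a member at 0 of 16, B cell genes at 0 of 9 and myeloid genes at 1 of 18, and a window of the opposite rule at 0, 1 (Bank1) and 2 (Spi1, Itgax). By nearest TSS, 1 of 18 T cell genes had a member. The member of Runx3, a factor of lymphocytes (exon 6, chr4:135174501-135175500, 883 to 1702 calls), was at 17.7%, 18.9% and 17.6% in saline, 36.3%, 37.8% and 40.0% in OVA-induced and 34.3%, 48.5%, 39.4% and 41.3% in DSE-treated mice. That of Spi1, which encodes PU.1 (exon 5, chr2:91115001-91116000), was at 12.7%, 14.0% and 19.2% in saline, 26.4%, 38.7% and 42.8% in OVA-induced and 35.5%, 39.2%, 38.6% and 43.0% in DSE-treated mice. Both windows lie in the last exon, away from the start of the gene. Intron 27 of Dock2, an exchange factor for Rac in leukocytes, where Insyn2b also lies (chr11:34415501-34416500), was at 28.3% ± 2.71 (SD, n = 3), 46.4% ± 10.7 (SD, n = 3) and 47.9% ± 10.9 (SD, n = 4). The heart list (0 of 9) and the liver list (0 of 10) had no member, although 1 of 10 liver genes had one by nearest TSS, and Myl4 of the heart list had a window of the opposite rule.

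**Figure D5:**
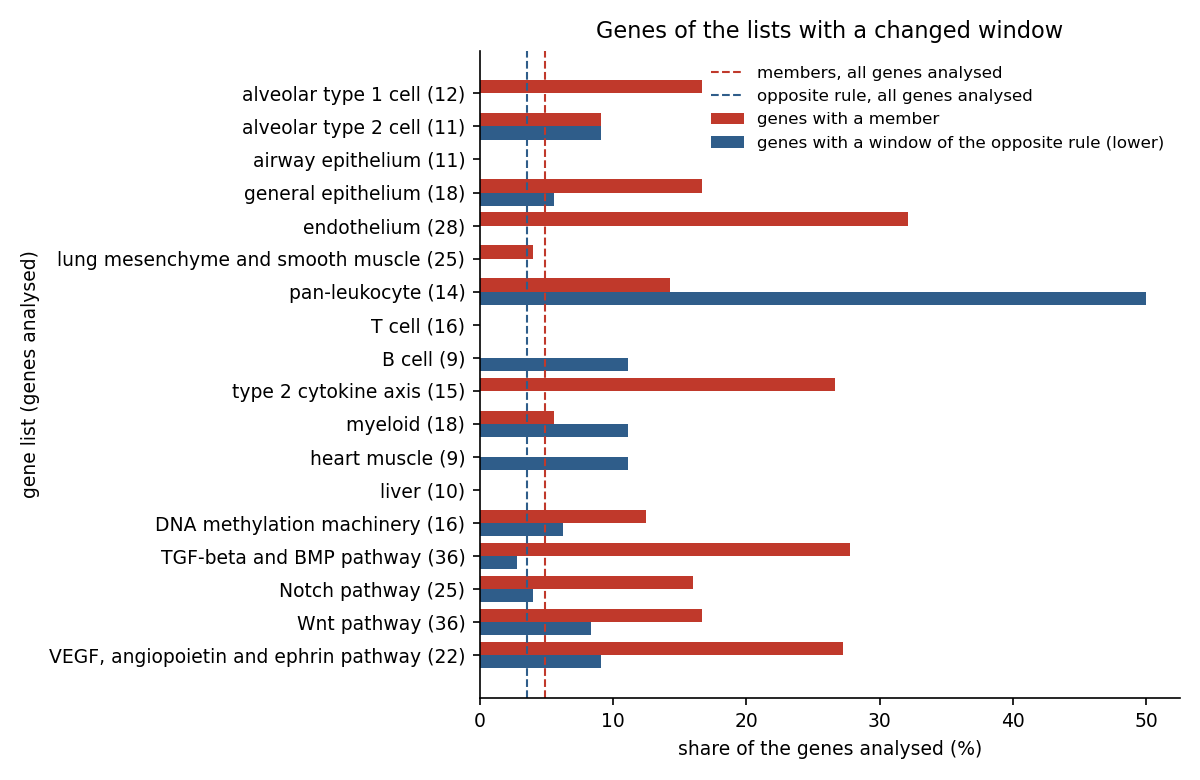
Share (percent, horizontal axis) of the genes analysed in each of the 18 lists (vertical axis, number of genes in brackets) that had a member (red) or a window of the opposite rule (blue), with dashed lines for all 20428 genes (4.92% and 3.55%). Endothelium has the longest red bar (32.1%) and no blue one under this assignment by overlap, though not by nearest TSS (6 of 28), while 7 of 14 pan-leukocyte genes have a window of the opposite rule.

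Windows at the TSS give levels that do not rest on the members. The median level in saline mice was 1.93% over all genes, 2.39% for the alveolar type 2 list, 3.82% for alveolar type 1, 5.12% for endothelium, 9.67% for B cells, 27.3% for heart and 71.7% for liver. It was 48.2% for pan-leukocyte genes, 57.9% for myeloid genes and 68.3% for T cells. The medians of the alveolar and endothelial lists were thus low but not below that of all genes. Single windows of these lists reached 74.2% in alveolar type 1, 67.6% in alveolar type 2 and 46.4% in endothelium. At the pan-leukocyte genes, 8 of 14 windows were lower in all exposed mice than in all saline mice, and none was higher. Over the TSS windows of all 17535 genes, 383 were lower and 1246 higher. With a saline median of 1.93%, against 48.2% at the pan-leukocyte genes, most of those windows had little room to fall. TSS windows of a like saline level were not compared. Averaged over the 14 windows, the saline mice had 38.4%, 38.8% and 38.5%, the OVA-induced mice 32.1%, 28.5% and 28.5%, and the DSE-treated mice 30.4%, 29.1%, 31.7% and 28.7%. The genes with lower levels included Ptprc, the leukocyte antigen CD45, at 70.6%, 50.1% and 48.8% on average in the 3 groups, and Dock2, at 64.4%, 43.6% and 45.03%. OVA replicate 1, Herb replicate 1 and Herb replicate 3, the exposed mice with the lowest means over the members, had the 3 highest of these means among the exposed mice. The same 3 mice had the lowest means of the exposed mice over all windows analysed (51.8%, 51.6% and 52.3%, others 52.4% to 52.8%). They also had the highest over the windows of the opposite rule (55.2%, 54.5% and 53.8%, others 50.1% to 51.3%). These sets of windows are not independent of the leukocyte genes, which held 25 windows of the opposite rule. The cause of the order of the exposed mice was not tested. At the myeloid genes, 1 of 10 windows was lower in all exposed mice and 1 higher, and at the T cell genes none of 9 was either. At mesenchyme genes, 8 of 21 windows were higher in all exposed mice and 1 lower. General epithelium had 5 of 18 higher, alveolar type 1 had 3 of 11 and endothelium 4 of 22, with none lower. The median OVA vs. saline differences of these lists were 0.618, 0.159, 1.04 and 0.594 points, against -11.6 points at the pan-leukocyte genes.

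DSE-treated vs. OVA-induced mice was the only comparison that the choice of members did not fix, although the choice kept both groups at least 15 points above saline and so limited how far they could part. Calls in all 412413 windows were fitted by logistic regression and compared by likelihood ratio, and a window was called when its p adjusted by Benjamini-Hochberg was under 0.01 and the pooled calls differed by 10 points or more. It called 5 members higher in DSE-treated mice (0.212%) and 6 lower (0.254%), against 0.887% and 0.698% of all windows analysed. The median DSE-treated vs. OVA-induced difference was -0.328 points over the members and -0.0326 over all windows. The test treats each call as independent. An F test that allows for the spread between mice called 0 members and 0 of all windows, and 25 members (1.06%) and 7.38% of all windows had an unadjusted p under 0.05. On M-values, limma called 0 members at an adjusted p under 0.05, against 0.113% of all windows higher and 0.0313% lower, and 45 members (1.91%) and 9.78% of all windows had an unadjusted p under 0.05. Without OVA replicate 1, the logistic test called 35 members lower in DSE-treated mice (1.48%, against 0.831% of all windows), so that the share of lower calls was then above that of all windows. Without OVA replicate 2, it called 14 higher (0.593%, against 1.08%).

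The lower calls lay in 5 regions. In intron 1 of Klc1, a light chain of the kinesin motor (chr12:111765001-111766000), OVA-induced mice had 66.3%, 60.7% and 58.7%, DSE-treated mice 49.0%, 59.4%, 49.3% and 43.8%, and saline mice 35.1%, 32.9% and 32.8%, a difference of -12.2 points in the pooled calls (adjusted p = 4.32e-05). The overlapping window 500 bp on was also called (-10.4 points), and there no DSE-treated mouse reached an OVA-induced mouse. In the promoter and intron 2 of Mcf2l, a guanine nucleotide exchange factor (chr8:12925001-12926000), OVA-induced mice had 67.6%, 64.6% and 62.9% and DSE-treated mice 41.8%, 42.2%, 47.0% and 59.4% (-17.2 points, adjusted p = 0.00257), with 25 to 83 calls and saline mice at 39.7%, 20% and 9.23%. Upstream of Grsf1, an RNA-binding protein of mitochondria (chr5:88691001-88692000), the groups overlapped, with 68.0%, 55.4% and 63.5% against 35.7%, 56.7%, 36.1% and 47.1% (-18.6 points, adjusted p = 3.79e-05). Intron 1 of Carhsp1, a protein that binds RNA (chr16:8669501-8670500), differed by -12.0 points (adjusted p = 0.00479), and an intergenic window upstream of the zinc finger gene Casz1 by -10.2 points, both with overlapping groups.

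The higher calls lay in 4 regions. A window at exons 18 and 19 of Lrmp, a membrane protein of lymphoid cells, had Casc1 next to it (chr6:145173501-145174500). Its level was 40.3%, 42.8% and 40.7% in OVA-induced mice and 47.5%, 63.4%, 59.2% and 55.2% in DSE-treated mice. The pooled calls were 14.8 points higher in DSE-treated mice (adjusted p = 1.29e-09). The region was called in a pair of overlapping windows that hold the same calls. Those calls thus lie in the stretch shared by the pair, which holds part of exon 18 and none of exon 19. In intron 1 of Pik3ca, the catalytic subunit of PI 3-kinase (chr3:32430001-32431000), OVA-induced mice had 34.7%, 39.7% and 38.3% and DSE-treated mice 48.7%, 49.2%, 48.0% and 55.9% (12.4 points, adjusted p = 0.000518), with saline mice at 20%, 16.9% and 27.0%. In both windows all DSE-treated mice were above all OVA-induced mice and moved further from saline. A window upstream of Pld1, a phospholipase D (chr3:27932001-27933000), differed by 10.9 points (adjusted p = 0.00745) and intron 1 of Rnf144a, a ubiquitin ligase (chr12:26411501-26412500), by 10.1 points (adjusted p = 0.000775), with overlapping groups. For all the calls named here, the limma adjusted p ran from 0.162 to 0.621. DSE-treated and OVA-induced mice did not overlap in 1.65% of the members and in 10.3% of all windows.

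The threshold of 15 points had no natural break. Just inside it were windows of Sox6, Casz1 and Syndig1l, with saline means of 23.0%, 35.5% and 17.4% and the smaller of both differences at 15.0019, 15.0037 and 15.0054 points. Just outside it were windows of Map3k5, Adk and Zfat, with saline means of 47.5%, 35.0% and 67.8% and the smaller difference at 14.9983, 14.9980 and 14.9968 points.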

How the data were processed

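Lung DNA of 10 mice was captured with Agilent SureSelect Methyl-seq probes and bisulfite converted. Reads were trimmed with Cutadapt and mapped to mm10 with Bismark, and methylKit summed the calls in windows of 1000 bp at steps of 500 bp. The submitters' processing notes give cutadapt 1.10, Bismark 0.19.0 and methylKit 1.0.0, and the study's methods give other versions. The deposited table by the authors holds, per window and mouse, the counts of all, methylated and unmethylated CpG calls, not normalized. Mice were grouped by the labels.

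From these counts the percentage of methylated calls was computed for windows on 19 autosomes, keeping those where no mouse had fewer than 20 calls. Group values are means over mice. The members, the gene lists and the motifs were chosen with earlier results of these data known. No test was made of saline mice against exposed mice at the members. DSE-treated and OVA-induced mice were compared in all windows by a logistic likelihood ratio test as in methylKit, and limma 3.58.1 on M-values, with 1 added to both counts, served as an alternative. Both were also run on simulated data, with an outcome that is not given here. Genes, exons and distances came from the RefSeq annotation of mm10, with promoters ahead of exons and introns, and a gene counted with 1000 bp around it. Windows were named by rule: the 10 largest gaps, the 5 longest regions, the 10 genes with most regions, 8 promoters, 3 genes per list, 3 windows on either side of the threshold, and 5 calls per direction in DSE-treated vs. OVA-induced mice. The window near Casz1, the sixth lower call, was added after its value was seen. Some windows that the rule names are not reported here. The 18 lists were alveolar type 1, alveolar type 2, airway and general epithelium, endothelium, mesenchyme, pan-leukocyte, T cell, B cell, type 2 axis, myeloid, heart, liver, DNA methylation, TGF-beta and BMP, Notch, Wnt, and VEGF with ephrins. The labels do not say that equal replicate numbers share a litter or batch. Computation used python 3.11.15, numpy 2.4.6, pandas 2.3.3, scipy 1.17.1, matplotlib 3.10.9 and R 4.3.3. Alternatives were other coverage and difference thresholds, pooled counts, other tests, a replicate block and leaving out each mouse.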

Additional observations from a re-analysis of the deposited data

Results flagged for a closer look

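In 4 of the 69 named windows (5.80%), 1 of the 4 DSE-treated mice stood apart from the other 3 by Dixon's criterion, which chance alone meets in about 1 of 20 groups. In intron 1 of Ehf, Herb replicate 1 was at 40.2% and the others at 47.2%, 48.4% and 48.6%. At Jak1 (intron 1), Herb replicate 4 was at 40.5% and the others at 19.4%, 21.2% and 21.7%. In intron 1 of Ephb4, Herb replicate 2 was at 43.3% and the others at 35.8% each. At Pik3ca (intron 1), Herb replicate 4 was at 55.9% and the others at 48.0%, 48.7% and 49.2%. Groups of 3 mice were not examined in this way.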

How the results depend on the processing

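The number of members depended on the threshold, with 10678 at 10 points and 312 at 20 points. It ranged from 2053 to 3864 when a mouse was left out, with 3552 without Saline replicate 1 and 3864 without Saline replicate 3. It was 2571 at a minimum of 10 calls, 2055 at 50, 2237 with pooled counts and 2371 with chromosome X. Left-out means ranged from 34.9% to 37.2% for saline, 42.8% to 48.4% for OVA-induced and 43.7% to 48.9% for DSE-treated mice. By window midpoint, 5.88% of the members were in promoters, 5.12% in exons and 55.4% in introns.

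Calls in DSE-treated vs. OVA-induced mice depended on the test. The F test and limma called 0 members, 25 and 45 with an unadjusted p under 0.05. Without a threshold on the difference, 62 were called higher (2.62%, against 6.63% of all windows) and 45 lower (1.91%, against 4.30%), and at 20 points 0 (against 0.118% and 0.0747%). Leaving out a mouse gave 5 to 14 higher and 4 to 35 lower, with 14 higher without OVA replicate 2, 12 without Herb replicate 1 and 8 without Herb replicate 2, and with 35 lower without OVA replicate 1 and 11 without Herb replicate 2. The cause was not tested.

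With the replicate number as a block, 4 members were called higher and 5 lower. Deviations of same-numbered mice correlated at -0.028 to 0.080 and of other pairs at -0.058 to 0.045. The highest value was between OVA replicate 1 and Herb replicate 1. With so few mice, these correlations cannot tell whether equal numbers share a litter or batch. Of the alternatives for the named windows, 758 moved by less than the spread between mice and 1 by more, and the smallest difference with a mouse left out was 13.9 points. By nearest TSS, 6 of the 18 lists changed their count of genes by more than 1.5 times (type 2 cells 1 to 2, airway 0 to 1, mesenchyme 1 to 3, pan-leukocyte 2 to 1, T cell 0 to 1, liver 0 to 1). Windows with few calls have wide intervals.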
